A study of Rattus norvegicus with 180 samples.

Results

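The sublingual, mandibular and parotid gland, the 3 large salivary glands of the rat, were compared with each other in all 3 pairs. The members were the 9 arrays of these glands, 3 per gland, among the 180 arrays of a rat miRNA atlas that covered 55 organs of perfused rats. The 9 samples came from 3 male Sprague-Dawley rats, 10 weeks old, with the animal numbers 4, 5 and 6. All 3 rats were perfused with saline under ether anaesthesia before the organs were taken, and the 3 glands shared this treatment. Each rat gave 1 sample of each gland, and glands were therefore compared within animals. The 3 glands of a rat lay on the same slide, so that animal and slide cannot be told apart. The samples are whole glands, in which fewer cells of a type and less RNA per cell cannot be told apart.

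Salivary glands are built of acini, which make the saliva, and of ducts, which carry and modify it. The acini of the sublingual gland are mainly mucous and secrete mucins, those of the parotid gland are serous and secrete a watery fluid rich in enzymes such as amylase, and the mandibular gland is mixed. miRNAs are short RNAs that guide the silencing machinery to mRNAs, largely through the seed, bases 2 to 8 of the mature strand. Many are made from clusters, in which several miRNAs are cut from 1 long transcript and so can change together.

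The arrays held probes for 717 rat miRNAs. Of these, 247 were detected on at least 1 gland array and 95 on all 9, where detected means that over 50% of the spots of a miRNA were well above background. The tests were run on the 172 miRNAs that were detected on all 3 arrays of at least 1 gland. All signals given here are array signals after scaling, unless they are called unscaled, and signals under a floor of 10.8 are given as the floor, except in sums over a list, which use the signals before the floor, with those under 0 set to 0. The signals of different miRNAs come from different probes and were not set against each other. Differences are on the log2 scale, with their standard error (SE), and adjusted p are from limma's moderated test with Benjamini-Hochberg adjustment over the 172 miRNAs of a pair (n = 3 animals). A miRNA is called where its adjusted p was under 0.05.

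The mature sequences below belong to miRNAs on which the results turn, and the seed is in capitals. They are those of RefSeq on GRCr8, and 35 of the 172 tested miRNAs had the same name there. A further 14 of the older names were matched through their numbered star strand, which shows which arm of the hairpin was meant. The other 123 are named only. The first set comes from the imprinted Dlk1-Dio3 cluster on chromosome 6, most of whose tested members were highest in the sublingual gland.

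rno-miR-376b-3p: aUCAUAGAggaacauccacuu

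rno-miR-300-3p: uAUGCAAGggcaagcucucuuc

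rno-miR-495: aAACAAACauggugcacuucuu

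rno-miR-431: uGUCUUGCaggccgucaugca

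These 4 strands lie on the plus strand at chr6:134558913-134558933, chr6:134559968-134559989, chr6:134554103-134554124 and chr6:134326468-134326488. No seed was shared among them. The second set belongs to the miR-17-92 cluster and its paralogs, which were low in the sublingual gland.

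rno-miR-17-5p: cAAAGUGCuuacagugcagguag

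rno-miR-20b-5p: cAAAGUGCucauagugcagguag

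rno-miR-19b (RefSeq rno-miR-19b-3p): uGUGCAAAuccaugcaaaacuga

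rno-miR-92a (RefSeq rno-miR-92a-3p): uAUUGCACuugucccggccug

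miR-17-5p and miR-20b-5p have the same seed, AAAGUGC, while miR-19b and miR-92a each have another. RefSeq lists miR-17-5p, miR-19b and miR-92a on both chromosome 15 and chromosome X, for example miR-92a at chr15:98588602-98588622 and at chrX:137342945-137342965, so the probes cannot tell which copy was expressed. miR-20b-5p is listed on chromosome X, at chrX:137343239-137343261. The third set was bright in the parotid gland.

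rno-miR-1224: gUGAGGACuggggagguggag

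rno-miR-3584-5p: gGGAGGAGuccaggaggc

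rno-miR-327: cCUUGAGGggcaugagggu

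rno-miR-139-3p: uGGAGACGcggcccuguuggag

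They lie at chr11:93811355-93811375, chr1:256727582-256727599 and chr20:13161137-13161155 on the minus strand and at chr1:165290901-165290922 on the plus strand. Of the 49 tested miRNAs with a sequence, these 4 have the highest shares of G, namely 61.9% in miR-1224, 55.6% in miR-3584-5p, 47.4% in miR-327 and 45.5% in miR-139-3p, against a median of 23.8%. Of the other miRNAs bright in the parotid gland described below, miR-466b has 31.8% and miR-3549 15.8%. Over the 25 miRNAs with a sequence that were lower in the sublingual than in the parotid gland the median was 23.8% too. No seed was shared among the 4.

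The array signal differed between the glands and between the animals. The 75th percentile of the unscaled signal, over the 37 miRNAs detected on all 180 arrays, was 6121, 1698 and 946 in the sublingual gland of animals 4, 5 and 6. It was 1482, 936 and 781 in the mandibular gland and 1061, 609 and 336 in the parotid gland. In each gland the array of animal 4 was the brightest and that of animal 6 the dimmest. The sublingual arrays differed by 6.47-fold and the parotid arrays by 3.16-fold, and both values lay above the range of the 52 other perfused organs, which was 1.08 to 2.70-fold. The mandibular arrays differed by 1.90-fold. The number of miRNAs detected was 193 ± 37.5 (SD, n = 3) in the sublingual gland, 154.3 ± 5.69 in the mandibular gland and 133 ± 19.7 in the parotid gland, and it was lowest, at 111, on the dimmest array, the parotid array of animal 6. No miRNA spot was saturated (0 spots on the 9 arrays), and the number of arrays limits the precision.

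**Figure D1:**
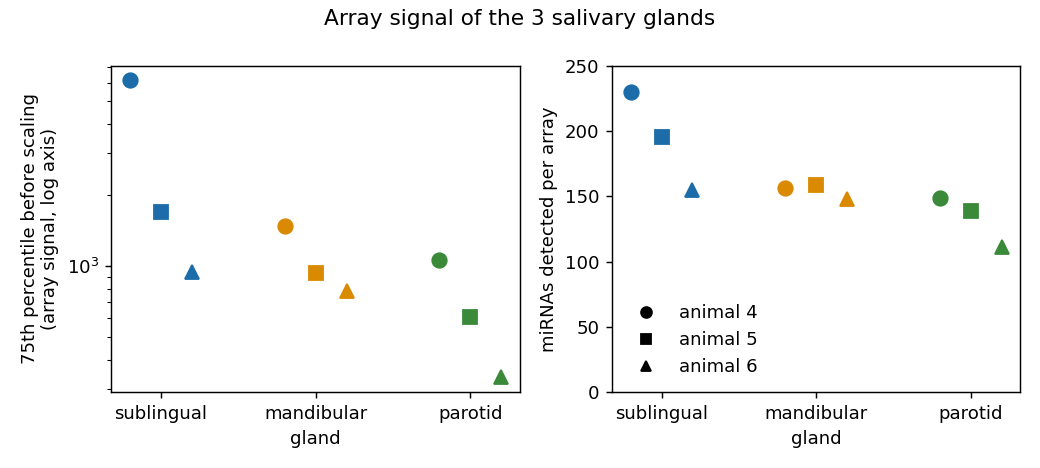
The left panel plots the 75th percentile of the unscaled array signal (log axis) and the right panel the number of miRNAs detected, for each gland, with 1 symbol per animal. In every gland the array of animal 4 has the highest signal, and the sublingual arrays run from 946 to 6121.

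After scaling, the arrays of a gland were close to each other, with exceptions in the mandibular and the parotid gland. The median over the 172 miRNAs of the SD over animals of the log2 signal was 0.16 in the sublingual, 0.29 in the mandibular and 0.22 in the parotid gland (n = 3 arrays each). Over the 52 other organs it ranged from 0.08 to 0.36, and the mandibular gland had the third largest value of the 55 organs. Over the miRNAs detected on all 3 arrays of a gland, which leaves out those at the floor, it was 0.16 in the sublingual, 0.27 in the mandibular and 0.29 in the parotid gland. The order of mandibular and parotid gland was thus not the same in both comparisons. An SD above 1 was seen for 3 miRNAs in the sublingual, 17 in the mandibular and 12 in the parotid gland. Between arrays of the sublingual gland Pearson's r of the log2 signal over these miRNAs was 0.975 to 0.992, and between those of the parotid gland it was 0.923 to 0.970, lowest for animals 4 and 6. These correlations are across miRNAs, which are not independent replicates.

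The mandibular array of animal 6 stood apart. The mandibular arrays of animals 4 and 5 had r = 0.995 with each other but 0.934 and 0.947 with that of animal 6, which was closer to the sublingual arrays of animals 5 and 6 (0.967 and 0.966). The signal of 53 miRNAs was over 2-fold higher or lower in the mean of the sublingual arrays than in the mean of the mandibular arrays of animals 4 and 5. For 50 of these 53 the signal of the mandibular array of animal 6 lay between both means. For the 37 that were higher in the sublingual gland it lay at a median of 51.4% of the way towards the sublingual mean on the linear scale (quartiles 48.0% and 57.2%), and for the 16 that were lower, at 81.5% (73.3% and 92.2%). Without this array the median SD of the other mandibular arrays was 0.10. The source of this position was not tested. The counts of calls and the patterns are given with and without this array, and so are the differences described below whose call changed without it.

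**Figure D2:**
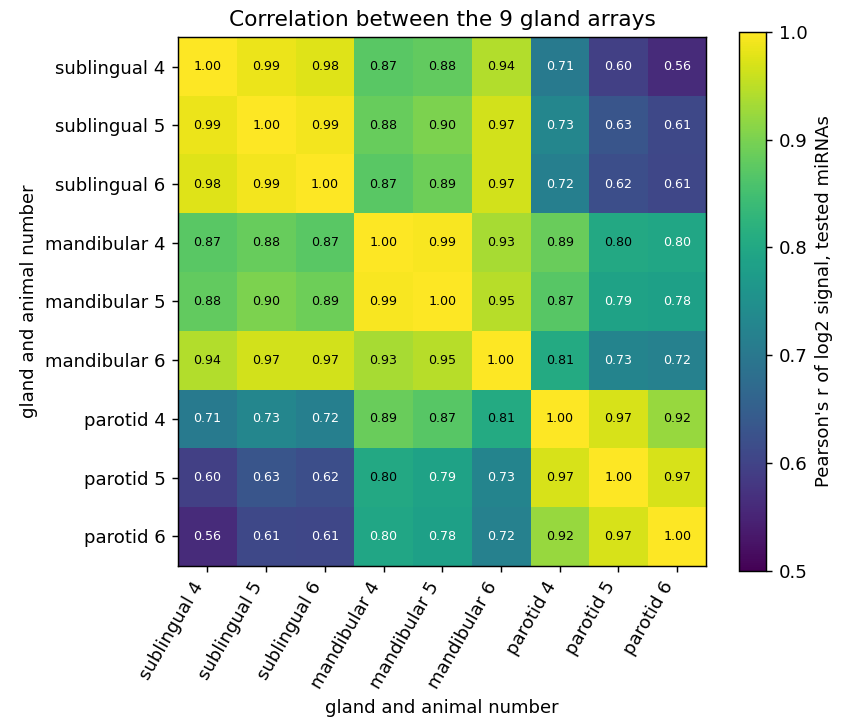
Each cell gives Pearson's r between the log2 signals of 2 gland arrays over the 172 tested miRNAs, with gland and animal number on both axes. The mandibular array of animal 6 has r = 0.97 with the sublingual arrays of animals 5 and 6 and 0.93 to 0.95 with the other mandibular arrays.

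The glands were checked against marker miRNAs. miR-200b, which keeps epithelial cells in their state and marks them, gave signals of 4109.9, 4262 and 4364 in the sublingual gland, 4290.5, 4671 and 4239 in the mandibular gland and 3813, 3481 and 4634 in the parotid gland. The 3 glands overlapped, and the adjusted p of the pairs were 0.818, 0.546 and 0.398. miR-141, of the same family, gave 949.7, 826 and 1059.9 in the sublingual, 1891, 1687 and 1138 in the mandibular and 1427, 1047 and 1158 in the parotid gland. It was lower in the sublingual than in the mandibular gland (log2 difference -0.71 ± 0.21 SE, limma adjusted p = 0.0374), by -0.96 without the mandibular array of animal 6. It was then higher in the mandibular than in the parotid gland (0.60, limma adjusted p = 0.0190). miR-141 was then also called lower in the sublingual than in the parotid gland (-0.35, limma adjusted p = 0.0422). The left-out array is not part of that pair, so the difference was the same and only the spread in the fit changed. Of the 5 other tested members of the miR-200 family, none was called between sublingual and mandibular gland, and 1 was higher in each of these glands than in the parotid gland, where 37.8% and 26.7% of all tested miRNAs were higher. These were miR-200c (0.47 ± 0.17, limma adjusted p = 0.0369, against the sublingual gland) and miR-429 (0.55 ± 0.18, adjusted p = 0.0391, against the mandibular gland). None of the 7 pancreatic acinar miRNAs in the design (miR-216a, miR-216b and miR-217 with their other strands) was detected on any gland array, and their summed signal was at most 3.75.

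Skeletal muscle miRNAs were seen on 2 parotid arrays. miR-1 gave 4386 and 2123 in the parotid gland of animals 4 and 5, against 15.1 in that of animal 6 and the floor on the 6 other gland arrays. miR-206, which is made in skeletal muscle, gave 526 and 274 there and the floor elsewhere. miR-133b gave 7062, 3646 and 24.6 in the parotid gland, 103, 103 and 96.1 in the sublingual gland and 23.7, 22.4 and 63.0 in the mandibular gland, and was called in no pair. Without the mandibular array of animal 6 it was called between mandibular and parotid gland (-6.52, limma adjusted p = 0.0267). Of the 8 muscle miRNAs in the design, 1 passed the filter for the tests, and the summed signal of the list was 12346, 6229 and 92.04 in the parotid gland, 117 to 126 in the sublingual gland and 35.2 to 91.5 in the mandibular gland. The erythrocyte miRNA miR-451 gave 64.3, 63.3 and 18.7 in the parotid gland and 10.8 to 18.6 in the others. The part of muscle or blood in the differences of the parotid gland was not tested. Where the parotid arrays of animals 4 and 5 were left out, 1 parotid array remained, the dimmest of the 9, which was assumed to vary like the arrays of the other glands. The number of calls was then 108 between sublingual and parotid gland and 41 between mandibular and parotid gland, and these counts do not bear on the muscle miRNAs.

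The largest number of differences was found between the sublingual and the parotid gland. Of the 172 miRNAs 130 were called (75.6%), 65 higher and 65 lower in the sublingual gland. An unadjusted limma p under 0.05 was found for 76.2%. Between mandibular and parotid gland 92 were called (53.5%), 46 in each direction, and between sublingual and mandibular gland 67 (39.0%), of which 44 were higher and 23 lower in the sublingual gland. With the test on the 95 miRNAs detected on all 9 arrays, 9 were higher and 23 lower in the sublingual than in the mandibular gland, 27 higher and 45 lower than in the parotid gland, and 24 higher and 29 lower in the mandibular than in the parotid gland. Without the animal in the fit, 37 were higher and 13 lower in the sublingual than in the mandibular gland. In the main fit the share with an unadjusted limma p under 0.05 was 56.4% between mandibular and parotid and 47.7% between sublingual and mandibular gland. The F test over the 3 glands called 133 (77.3%, and 80.2% unadjusted). In each pair the difference of every called miRNA had one sign in all 3 animals. The signals of the 3 arrays of 1 gland did not overlap those of the other for 122 of the 130, 81 of the 92 and 55 of the 67 called miRNAs, which are 70.9%, 47.1% and 32.0% of those tested, where 76.2%, 52.3% and 43.6% of all tested miRNAs did not overlap. The median size of a called difference was 1.53 between sublingual and parotid, 1.04 between mandibular and parotid and 1.46 between sublingual and mandibular gland.

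Many called miRNAs set 1 gland apart from both others. The sublingual gland was above both others for 40 miRNAs and below both for 18. Such counts, here and for the other glands, are partly fixed by the filter, which a miRNA can pass through 1 gland alone. On the 95 miRNAs detected on all 9 arrays, 9 were higher and 23 lower in the sublingual than in the mandibular gland. The parotid gland was above both others for 41 and below both for 42. The mandibular gland was above both for 1 and below both for 2. With the mandibular array of animal 6 left out, it was above both for 12 and below both for 4, and the sublingual gland was below both for 37. A graded order with both steps called was seen from sublingual over mandibular to parotid for 19 miRNAs and in the opposite order for 5. Of the latter, 3 are miRNAs with nearly constant unscaled signal, and 5 such miRNAs, described at the end, are among the 18 that the sublingual gland had below both others. In 27 miRNAs no pair was called, and in 14 without the mandibular array of animal 6, where the graded orders held for 18 and 9.

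The count between sublingual and mandibular gland rested on few arrays. Without the mandibular array of animal 6 it was 94, with 47 in each direction. It was 36 without the mandibular array of animal 4 and 0 without the mandibular array of animal 5, the sublingual array of animal 4 or 5, or all arrays of animal 4 or of animal 5, although 37 to 61 miRNAs had an unadjusted limma p under 0.05 in these fits. In the fits with 0 calls none of the differences described below for this pair was called, those of the miRNA clusters included. Without animal 5 the counts were 80 between sublingual and parotid and 9 between mandibular and parotid gland, the F test called 50, and without the mandibular array of animal 5 the count between mandibular and parotid gland was 61.

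The imprinted Dlk1-Dio3 cluster, a group of miRNAs that are transcribed from the maternal chromosome and known from brain, pituitary and developing tissues, had most of its tested members higher in the sublingual gland than in the other glands, while miR-494, miR-370 and miR-409-3p were highest in the parotid gland. The summed signal of its strands was 4277 to 4523 in the sublingual, 1008 to 3066 in the mandibular and 10621 to 33285 in the parotid gland. Of its 83 strands in the design 34 passed the filter, many of them through the sublingual gland alone, and 34 were not detected on any gland array. Of the 34 tested, 30 were higher in the sublingual than in the mandibular gland and 1 lower, where 25.6% of all tested miRNAs were higher. These counts are partly fixed by the filter, since 19 of the 34 were not detected on all arrays of both glands. Of the 15 that were, 12 were higher and 1 lower in the sublingual gland, with a median of 1.64, where 18.0% of all 128 such miRNAs were higher. Against the parotid gland 30 were higher and 4 lower, where 37.8% of all were higher. There 3 members, miR-409-3p and the 2 probes of miR-494, were detected on all arrays of both glands, and all 3 were lower in the sublingual gland. Of all 96 such miRNAs 46.9% were lower in that pair. Between mandibular and parotid gland 16 were higher in the mandibular gland and 4 lower, where 26.7% of all were higher. None of these 16 was detected on all arrays of both glands, and the 3 members that were, the same as above, were lower in the mandibular gland. Of all 96 miRNAs detected on every array of these glands 29.2% were lower. The median log2 differences of the 34 were 1.72, 2.94 and 0.98, beside -0.07, -0.12 and 0.07 over all tested miRNAs. With the members that 1 gland lacked above background at their lower bound, the medians of the cluster were 1.68, 1.36 and 0.59. Without the mandibular array of animal 6, 30 were higher and 1 lower in the sublingual than in the mandibular gland, where 27.3% of all were higher, with a median of 2.24. Between mandibular and parotid gland 15 were then higher and 3 lower, where 31.4% and 25.0% of all were higher and lower, with a median of 0.33.

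miR-379 gave 274, 241 and 248 in the sublingual gland of animals 4, 5 and 6, 35.5, 53.0 and 168 in the mandibular gland, and 12.5, 10.8 and 10.8 in the parotid gland. The glands did not overlap, and the mandibular array of animal 6 was the nearest to the sublingual gland. The log2 difference between sublingual and mandibular gland was 1.90 ± 0.47 (SE, limma adjusted p = 0.0236), and 2.57 without the mandibular array of animal 6. miR-379 was not well above background on any parotid array. The sublingual gland was at least 7.85-fold brighter (limma adjusted p = 0.000426) and the mandibular gland at least 2.11-fold (adjusted p = 0.00568), where such a bound sets the mean log2 signal of the bright gland against that of the dim arrays, each taken at its lowest detected signal or at the miRNA's own signal, whichever is higher. The unscaled signals were 790.9, 193 and 111 in the sublingual gland. They were 24.9, 23.4 and 61.9 in the mandibular and 6.27, 0.72 and 0 in the parotid gland. Within each animal the overall unscaled signal of the arrays had the same order of glands. The unscaled order of miR-379 therefore cannot show whether its differences depend on the scaling.

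miR-434 gave 364, 344 and 376.6 in the sublingual gland, 69.0, 99.4 and 227 in the mandibular gland and 28.1, 14.2 and 12.2 in the parotid gland, where it was detected on 1 of 3 arrays. Its log2 differences were 1.64 ± 0.49 between sublingual and mandibular, 4.42 ± 0.49 between sublingual and parotid and 2.78 ± 0.49 between mandibular and parotid gland, with limma adjusted p of 0.0344, 0.000483 and 0.00507. The sizes of its differences from the parotid gland rest on signals near the floor and are no exact values. miR-154 gave 237, 232 and 274, then 33.1, 55.4 and 159.7, and 14.0, 12.0 and 13.2 in the parotid gland, where it was not well above background. The sublingual gland was at least 7.64-fold brighter for miR-154 than the parotid gland. For both, the 3 glands kept apart.

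miR-376b-3p, whose seed is UCAUAGA, gave 206, 204 and 204 in the sublingual gland, 20.8, 49.4 and 113 in the mandibular gland and the floor on all 3 parotid arrays. It was 2.07 ± 0.47 higher in the sublingual than in the mandibular gland on the log2 scale (limma adjusted p = 0.0188) and at least 6.33-fold brighter than the parotid gland. miR-136 gave 357, 313 and 393, then 74.1, 114 and 319, and 22.1, 20.7 and 23.2. Here the mandibular array of animal 6 fell within the sublingual range, and the log2 difference between these glands was 1.34 ± 0.39 (limma adjusted p = 0.0335). miR-127, which lies antisense to the imprinted gene Rtl1, gave 287, 402 and 330.4 in the sublingual gland, 62.3, 92.1 and 202 in the mandibular gland and 34.7, 24.6 and 16.1 in the parotid gland.

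Of the other strands printed above, miR-300-3p gave 122, 109 and 118 in the sublingual gland and was not well above background on any mandibular or parotid array (20.2, 29.7 and 76.2 in the mandibular gland, the floor in the parotid gland). miR-495 gave 62.8, 58.1 and 66.7 in the sublingual gland and 10.8, 13.2 and 39.8 in the mandibular gland, and miR-431 gave 54.1, 52.5 and 61.2 in the sublingual gland and 10.8, 10.8 and 39.0 in the mandibular gland. Both were at the floor on all 3 parotid arrays. For miR-300-3p the sublingual gland was 3.26-fold brighter than the mandibular gland in mean log2 signal. Its own signals exceeded the lowest detected signal on each mandibular array, so this is the measured fold and no lower bound. For miR-431 the sublingual gland was at least 2.70-fold brighter. Both miRNAs passed the filter through the sublingual gland alone, so these folds are given as a description, with no p. miR-495, which was detected on 1 mandibular array, also passed the filter through the sublingual gland alone. Its log2 difference from the mandibular gland, 1.81 ± 0.38, is a description too, and its size depends on the floor.

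Among the 55 organs of the perfused rats the sublingual gland had the highest mean signal of miR-376b-3p, followed by pituitary gland and thalamus. It was the second for miR-154 and the third for miR-379, after pituitary gland and, for miR-379, thalamus. For miR-434 and miR-127 it had rank 11, and thalamus and pituitary gland led.

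Within the cluster 4 strands ran the other way and were higher in the parotid gland than in the sublingual gland. The signals of miR-494 were 149.7, 168 and 147 in the sublingual, 163, 157 and 193 in the mandibular and 3797, 13262 and 12577 in the parotid gland. A second probe set, listed as miR-494_v15.0, gave 141 to 159 in the sublingual, 157 to 165.4 in the mandibular and 6479.9, 17872 and 20195 in the parotid gland. miR-370 gave 22.2, 85.5 and 105.8 in the parotid gland, and 10.8 to 13.3 in the other glands. miR-409-3p gave 12.6, 32.6 and 44.7 in the sublingual, 31.0, 57.1 and 62.6 in the mandibular and 49.6, 73.5 and 145 in the parotid gland, with unscaled signals of 20.0 to 36.4. Its difference between mandibular and parotid gland (-0.75, limma adjusted p = 0.0284) was not called without the mandibular array of animal 6 (-0.54, adjusted p = 0.0615). With a floor 4 times as high the cluster had 23 higher calls between sublingual and mandibular gland and 24 between sublingual and parotid gland, but 3 between mandibular and parotid gland, where the median difference was then 0.08. Of all 172 tested miRNAs 33, 57 and 31 were then higher in these pairs.

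The miR-17-92 cluster and its paralogs, which are known to promote the cell cycle and are high in dividing cells, were low in the sublingual gland. Of 24 strands in the design 8 were tested. All 8 were lower in the sublingual than in the parotid gland, where 37.8% of all tested miRNAs were lower, and 7 of the 8 were lower than in the mandibular gland, where 13.4% of all were lower. Between mandibular and parotid gland 2 of the 8 were called, both lower in the mandibular gland, where 26.7% of all were lower. The median log2 differences were -1.46 between sublingual and mandibular, -1.51 between sublingual and parotid and 0.00 between mandibular and parotid gland. Of the 8, miR-17-5p, miR-19a and miR-20b-5p passed the filter through the mandibular gland alone. Of the 5 detected on all 9 arrays, 4 were lower in the sublingual than in the mandibular gland, with a median of -1.39. There 14.8% of the 128 miRNAs that both glands showed on every array were lower. All 5 were lower than in the parotid gland, with a median of -1.53, where 46.9% of the 96 such miRNAs were lower. With the mandibular array of animal 6 left out, all 8 were lower in the sublingual than in the mandibular gland, where 27.3% of all were lower, with a median of -1.80.

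miR-19b, a member of the cluster with a seed of its own, gave 234, 217 and 215.4 in the sublingual gland, 816, 857 and 344 in the mandibular gland and 1128, 912 and 968 in the parotid gland. The sublingual arrays lay below all others, and the mandibular array of animal 6 lay between the sublingual and the other mandibular arrays. The log2 difference was -1.49 ± 0.29 against the mandibular gland (limma adjusted p = 0.0188), -1.89 without that array, and -2.17 ± 0.29 against the parotid gland (adjusted p = 0.000848). Between mandibular and parotid gland it was -0.68 ± 0.29, which did not pass the threshold (limma adjusted p = 0.0941).

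miR-92a, the last member of the cluster, was graded over the 3 glands. Its signals were 76.0, 106.6 and 104 in the sublingual, 295, 272 and 188 in the mandibular and 656, 717 and 1060.1 in the parotid gland. The glands did not overlap. The log2 differences were -1.39 ± 0.28 between sublingual and mandibular, -3.07 ± 0.28 between sublingual and parotid and -1.68 ± 0.28 between mandibular and parotid gland, with limma adjusted p of 0.0188, 0.000366 and 0.00422.

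miR-17-5p and miR-20b-5p, which share a seed, moved alike. miR-17-5p gave 18.2, 18.5 and 13.9 in the sublingual, 59.5, 62.8 and 25.2 in the mandibular and 57.6, 39.9 and 39.3 in the parotid gland. miR-20b-5p gave 30.7, 31.2 and 22.0, then 111, 110.4 and 42.6, and 105, 71.0 and 62.8. The log2 differences between sublingual and mandibular gland were -1.44 ± 0.26 and -1.55 ± 0.25. Both miRNAs passed the filter through the mandibular gland alone, so these differences are given as a description, with no p. Probes for strands this alike may share RNA, so these values are not independent of each other. miR-20a and miR-19a differed by -1.58 ± 0.23 and -1.97 ± 0.31 in that pair, and miR-19a too passed the filter through the mandibular gland alone. miR-106b, of the paralogous miR-106b-25 cluster, differed by -0.74 ± 0.21, and miR-25 of that cluster had a difference of -0.34 ± 0.19, which did not pass the threshold (limma adjusted p = 0.219) but did so without the mandibular array of animal 6 (-0.53, adjusted p = 0.0310).

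A further 2 miRNAs, outside the families, were also low in the sublingual gland. miR-193 gave 56.8 to 74.8 in the sublingual, 124 to 260.1 in the mandibular and 149 to 186 in the parotid gland, and miR-218 gave 22.4 to 45.6, 53.4 to 138 and 60.1 to 69.5. Both were lower in the sublingual gland than in the mandibular gland (log2 -1.52 ± 0.25 and -1.67 ± 0.32) and than in the parotid gland (-1.28 ± 0.25 and -1.10 ± 0.32). Without the mandibular array of animal 6 both were also higher in the mandibular than in the parotid gland, by 0.55 and 0.88 (limma adjusted p = 0.0282 and 0.0480).

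A group of miRNAs was far brighter in the parotid gland than in the other glands. miR-1224 gave 86.7, 161 and 222.4 in the sublingual gland, 231, 249 and 219.8 in the mandibular gland and 2145, 10420.5 and 17896 in the parotid gland. The parotid arrays lay far above the others, and that of animal 4 was the lowest of them. The log2 difference was -5.66 ± 0.53 between sublingual and parotid and -4.98 ± 0.53 between mandibular and parotid gland (limma adjusted p = 0.000378 and 0.000888). The unscaled parotid signals were 1075, 2994 and 2839.5, against 81.1 to 251 in the other glands.

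miR-3584-5p gave 12.4, 19.7 and 10.8 in the sublingual gland, 56.2, 54.7 and 459 in the mandibular gland and 1014, 9208 and 11803 in the parotid gland. It was well above background on 2 of the 3 sublingual arrays and at the floor on that of animal 6, so that the sizes of its differences from the sublingual gland depend on the floor. The log2 difference between sublingual and parotid gland was -8.44 ± 0.87 (limma adjusted p = 0.000426), and that between mandibular and parotid gland -5.42 ± 0.87 (adjusted p = 0.00406). Here the mandibular array of animal 6 was the highest of its gland and did not lie towards the sublingual gland. The difference between sublingual and mandibular gland, -3.02 ± 0.87, was called (adjusted p = 0.0329), but not without this array (-2.24, adjusted p = 0.0866).

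miR-327 gave 277, 1424 and 1548 in the parotid gland, 10.8 to 14.1 in the sublingual gland and the floor on all 3 mandibular arrays, so the parotid gland was at least 52.3-fold brighter than the mandibular gland. This fold is given as a description, with no p. miR-139-3p gave 63.4, 271 and 210.6 in the parotid gland, 10.8 to 15.5 in the sublingual and 16.9 to 23.3 in the mandibular gland. The miRNAs miR-466b, miR-328a\* and miR-3549 were not well above background on any sublingual or mandibular array and gave 59.0 to 171, 27.0 to 175 and 36.7 to 218 in the parotid gland. For these 3 the parotid gland was at least 8.64, 6.43 and 7.48-fold brighter than the sublingual gland. On all of them the parotid array of animal 4 was the lowest of the 3.

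**Figure D3:**
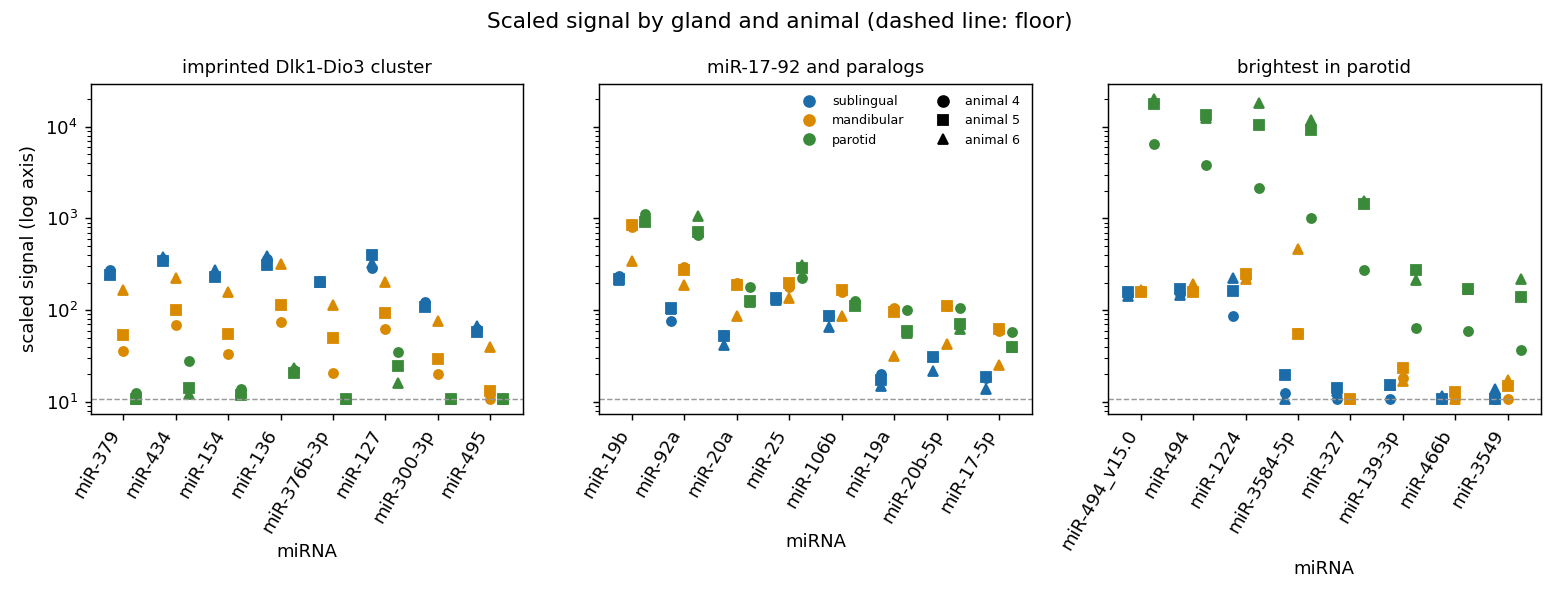
Scaled signal (log axis) of 8 miRNAs of the imprinted Dlk1-Dio3 cluster, the 8 tested members of the miR-17-92 cluster and its paralogs, and 8 miRNAs bright in the parotid gland, with gland by colour, animal by symbol and the floor of 10.8 as a dashed line. The mandibular array of animal 6 (orange triangles) lies towards the sublingual arrays in the first 2 panels, and the parotid array of animal 4 (green circles) is the lowest parotid array in the third.

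The same miRNAs had a higher mean signal after scaling in the pancreas, whose acini are serous too, of the same rats. For miR-3549 the scaled signals of the pancreas, 108, 258 and 245, overlapped those of the parotid gland given above. In the pancreas of animals 4, 5 and 6 miR-1224 gave 880135, 589293 and 1688800 after scaling, miR-494 gave 111387, 145292 and 127409, and miR-327 gave 12209, 20634 and 15447. The pancreas had the highest and the parotid gland the second highest mean of the 55 organs for miR-1224, miR-3584-5p, miR-327, miR-494 and miR-3549. For miR-139-3p, miR-328a\* and miR-466b the pancreas was the highest too, but the second was the esophagus, the ileum and the cecum, and the parotid gland had rank 3, 3 and 4. The unscaled 75th percentile was 68.0, 90.5 and 121 on the pancreas arrays, and at least 336 on the gland arrays. Its mean over 3 arrays was 669 in the parotid, 1067 in the mandibular and 2921 in the sublingual gland, and its part in these values was not tested.

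Other families separated the parotid gland from both other glands. miR-10a-5p and miR-10b, which lie within the Hox gene clusters and follow position along the body, were higher in the parotid gland. Both passed the filter through the parotid gland alone, so their differences are given as a description, with no p. miR-10b gave 50.1, 41.5 and 43.0 in the sublingual, 52.1, 55.8 and 39.5 in the mandibular and 358, 293 and 214 in the parotid gland. It was detected on 2 sublingual, 2 mandibular and 3 parotid arrays. The log2 difference was -2.65 ± 0.17 between sublingual and parotid and -2.54 ± 0.17 between mandibular and parotid gland. The difference between sublingual and mandibular gland was -0.12 ± 0.17. miR-10a-5p gave 77.5, 47.4 and 70.7 in the parotid gland and 10.8 to 13.7 in the others. Of the 55 organs the epididymis had the highest mean signal of both.

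miR-34a, a target of p53 known from cell-cycle arrest, gave 216, 145 and 173 in the sublingual, 121, 138 and 138 in the mandibular and 375.96, 525 and 779.6 in the parotid gland, a log2 difference of -1.61 ± 0.27 for the sublingual minus the parotid gland and of -2.02 ± 0.27 for the mandibular minus the parotid gland (limma adjusted p = 0.00179 and 0.00221). Of the 7 tested members of the miR-30 family, which is abundant in differentiated epithelium, 6 were lower in the sublingual than in the parotid gland and 3 lower in the mandibular than in the parotid gland, where 37.8% and 26.7% of all tested miRNAs were lower. Between sublingual and mandibular gland 1 was lower, where 13.4% of all were lower, and 5 without the mandibular array of animal 6, where 27.3% of all were lower. miR-30a gave 454 to 512, 487.4 to 726 and 1148 to 1591 in the sublingual, mandibular and parotid gland (-0.54 for sublingual minus mandibular gland without the mandibular array of animal 6, limma adjusted p = 0.0445), and miR-30d gave 282 to 340.4, 316 to 387 and 632 to 1346. The family's median log2 difference between mandibular and parotid gland was -0.36, and quantile normalization turned it to 0.28. miR-99a was higher in the parotid gland, with 1223 to 1615 against 626 to 765 in the sublingual and 618 to 849 in the mandibular gland.

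miR-21, which is abundant in epithelium and known from growth and tissue repair, was lowest in the parotid gland. It gave 9250.5, 10453 and 9704 in the sublingual, 5482, 6630.0 and 7979 in the mandibular and 2155, 1412 and 1555 in the parotid gland. The log2 difference was 2.54 ± 0.23 between sublingual and parotid and 1.98 ± 0.23 between mandibular and parotid gland (limma adjusted p = 0.000366 and 0.00113). Although the sublingual and mandibular arrays did not overlap, the difference of 0.56 ± 0.23 did not pass the threshold (limma adjusted p = 0.0900). With the mandibular array of animal 6 left out, it was 0.73 (adjusted p = 0.0381).

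miR-221, known to lower cell-cycle inhibitors, gave 146, 166 and 131 in the sublingual, 139.8, 163 and 122 in the mandibular and 45.2, 48.9 and 51.5 in the parotid gland, a log2 difference of 1.60 ± 0.15 and 1.54 ± 0.15 (limma adjusted p = 0.000378 and 0.000671). miR-103 and miR-107, a pair with almost the same sequence known from lipid and insulin metabolism, were higher by 0.70 ± 0.15 and 1.00 ± 0.14 in the sublingual and by 0.86 ± 0.15 and 1.21 ± 0.14 in the mandibular than in the parotid gland. miR-96 and miR-183, of the cluster known from sensory cells, gave 726 to 728 and 119 to 168 in the sublingual, 649 to 734 and 148.4 to 188 in the mandibular and 404 to 459 and 75.2 to 113 in the parotid gland, and both were higher in each of the first 2 glands than in the parotid gland. In this set the sublingual and mandibular gland overlapped, and no difference between them was called.

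The let-7 family, which is high in differentiated cells, had 8 tested members. Of these 6 were higher in the sublingual and 6 higher in the mandibular than in the parotid gland, with median log2 differences of 0.52 and 0.53, where 37.8% and 26.7% of all tested miRNAs were higher, and none of the 8 was called between sublingual and mandibular gland. let-7f gave 6111, 5478 and 5932 in the sublingual, 5607, 5701 and 5357 in the mandibular and 3832, 2921 and 2363 in the parotid gland. let-7c, by contrast, gave 4787 to 6052, 6502 to 6699 and 5168 to 6719, with adjusted p of 0.123, 0.434 and 0.285. Without the mandibular array of animal 6 it was lower in the sublingual than in the mandibular gland (-0.44, limma adjusted p = 0.0191), and 2 of the 8 were lower in that pair, where 27.3% of all tested miRNAs were lower. The members of this family differ by few bases, so that probes may share RNA between them. miR-16 was higher by 0.68 ± 0.15 and 0.79 ± 0.15 in the sublingual and mandibular than in the parotid gland.

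**Figure D4:**
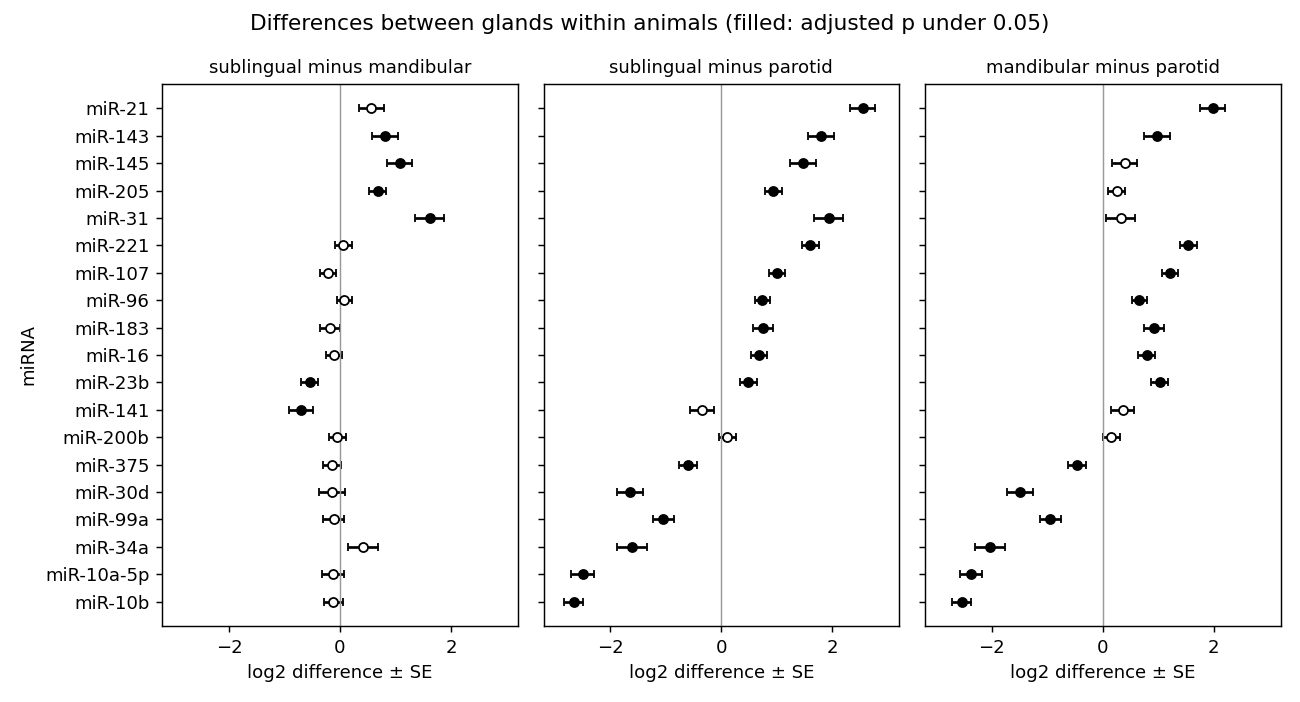
Log2 differences between glands (points) with their SE (bars) for 19 miRNAs, 1 panel per pair, from the fit within animals over 3 animals. Filled points passed an adjusted p of 0.05, for example miR-21 at 2.54 between sublingual and parotid gland. miR-10b, at -2.65 in that pair, passed the filter for the tests through the parotid gland alone.

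Markers of other cell types and epithelia also differed. miR-143 and miR-145, which are made together in smooth muscle and fibroblasts, were highest in the sublingual gland. miR-143 gave 3178, 3447 and 3057 in the sublingual, 1627, 1582 and 2385 in the mandibular and 1126, 949.9 and 749 in the parotid gland, and the 3 glands kept apart. Its log2 difference was 0.82 ± 0.24 between sublingual and mandibular and 1.79 ± 0.24 between sublingual and parotid gland (limma adjusted p = 0.0329 and 0.000807). The mesenchymal miRNA miR-214 had another order, with 67.5 to 102 in the sublingual, 38.6 to 71.3 in the mandibular and 119.8 to 151 in the parotid gland, and was called in all 3 pairs. Over the list of 5 tested strands of smooth muscle and fibroblasts 3 were higher in the sublingual than in the mandibular gland, 2 were higher and 1 lower in the sublingual than in the parotid gland, and 1 was higher and 3 lower in the mandibular than in the parotid gland. Of all tested miRNAs 25.6% were higher in the first pair, 37.8% higher and 37.8% lower in the second and 26.7% each way in the last. With the mandibular array of animal 6 left out, all 5 were higher in the sublingual than in the mandibular gland, where 27.3% of all were higher, with miR-199a-3p at 0.75 and miR-199a-5p at 0.83, and 2 were higher and 2 lower in the sublingual than in the parotid gland, where 40.1% of all were higher and 42.4% lower. Among the lower was miR-199a-5p at -0.46, in a pair that does not hold that array, so only the spread in the fit had changed. This miRNA was detected on 2 mandibular and 2 parotid arrays and so passed the filter through the sublingual gland alone.

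Of the squamous epithelium list, miR-205 and miR-31, known from basal cells, were highest in the sublingual gland. miR-203, of the same list, did not pass the filter and gave 28.1, 30.5 and 25.2 in the sublingual, 61.6, 70.2 and 34.7 in the mandibular and 37.6, 32.3 and 32.5 in the parotid gland, lowest in the sublingual gland. miR-205 gave 314, 302 and 204.5 in the sublingual, 182.45, 177 and 146 in the mandibular and 138, 153 and 131 in the parotid gland. It was higher by 0.68 ± 0.15 than in the mandibular and by 0.93 ± 0.15 than in the parotid gland (limma adjusted p = 0.0188 and 0.00159), and a second probe set for it differed by 0.64 ± 0.13 and 1.11 ± 0.13. miR-31 gave 38.8, 47.3 and 38.7 in the sublingual gland and was not well above background on any array of the other glands, so the sublingual gland was at least 2.45-fold brighter than the mandibular and at least 1.28-fold brighter than the parotid gland. miR-23b was highest in the mandibular gland, with 2974 to 3078 in the sublingual, 3650.4 to 5173 in the mandibular and 2118 to 2219 in the parotid gland, and was the miRNA that the mandibular gland had above both others with both pairs called on all 9 arrays. miR-375, known from endocrine and secretory cells, gave 671 to 849.7, 750.0 to 959 and 1051 to 1271 and was higher in the parotid gland, with log2 differences of -0.60 ± 0.16 for the sublingual minus the parotid and -0.46 ± 0.16 for the mandibular minus the parotid gland (limma adjusted p = 0.0130 and 0.0492). Without the mandibular array of animal 6 the second was -0.30 and not called (adjusted p = 0.0641). Quantile normalization turned both differences, on all 9 arrays, to 0.24 and 0.26. miR-7a, the other tested member of the endocrine list, gave 25.0 to 28.6 in the sublingual, 31.3 to 51.9 in the mandibular and 27.2 to 38.8 in the parotid gland. It passed the filter through the mandibular gland alone and was called in no pair. Without the mandibular array of animal 6, the lowest of its gland at 31.3, it was called higher in the mandibular than in both other glands. Since miR-7a passed the filter through that gland alone, this call is a description only.

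Of the 3 tested leukocyte miRNAs, 1 was higher and 1 lower in the sublingual gland than in each of the other glands, where 25.6% and 13.4% of all tested miRNAs were higher and lower against the mandibular gland and 37.8% each way against the parotid gland. miR-223 gave 94.2 to 137 in the sublingual, 109.7 to 167 in the mandibular and 148.4 to 234 in the parotid gland and was highest in the parotid gland. miR-142-3p gave 92.5 to 131, 106.5 to 271 and 92.5 to 183 and was lower in the sublingual than in the mandibular gland (log2 -0.71 ± 0.19, limma adjusted p = 0.0285), with overlapping signals. With the mandibular array of animal 6 left out, it was also higher in the mandibular than in the parotid gland (0.61, adjusted p = 0.0196). miR-146a gave 217 to 318, 161 to 207 and 185 to 231 and was higher in the sublingual gland than in the others, by 0.60 ± 0.17 and 0.46 ± 0.17.

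For 5 of the tested miRNAs the unscaled signal varied by under 2-fold over the 9 arrays, while the arrays' 75th percentile varied from 336 to 6121. They were miR-2985, miR-3085, miR-3573-3p, miR-409-3p and miR-702-3p. miR-2985 had unscaled signals of 24.4 to 29.1 and, after scaling, 10.8, 36.2 and 54.6 in the sublingual, 36.7, 65.9 and 77.5 in the mandibular and 53.4, 92.9 and 173 in the parotid gland. The scaled values followed the scaling factors, which ran from 0.346 on the brightest to 6.30 on the dimmest array. All 5 were called lower in the sublingual than in both other glands, and 3 were called lower in the mandibular than in the parotid gland. The part of the scaling in these calls was not tested. Without the 5 miRNAs 62 calls were made between sublingual and mandibular and 89 between mandibular and parotid gland. miR-3573-3p is named here after its values were seen. Of the 5 miRNAs with the largest SD in the sublingual gland, 4 were among them.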

How the data were processed

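Total RNA of each organ was hybridised to 1-colour Agilent rat miRNA arrays and read with Feature Extraction 10.7.3, per the submitters' processing notes. The values used were the background-subtracted spot intensities (processed signal) that the authors deposited for each array. They also deposited a table of normalized signal intensity, which holds 715 miRNAs and was used as an alternative. Its values were handled as linear signal, and were floored and put on the log2 scale like the others.

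Outlier spots were left out, spots were averaged per probe and probes per miRNA, and a factor per array brought the 75th percentile of the 37 miRNAs found on every one of the 180 arrays to 2118. Signals were then floored at 10.8 and put on the log2 scale. Glands were compared with limma 3.58.1 in R 4.3.3 (lmFit and eBayes, gland and animal as fixed terms, 4 residual and 2.57 prior degrees of freedom) over 9 arrays and 172 miRNAs, with Benjamini-Hochberg adjustment within each pair at 0.05. Tables and figures were made with Python 3.11.15, pandas 2.3.3, numpy 2.4.6 and matplotlib 3.10.9. The fit was tested on simulated data.

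The block follows the animal numbers of the labels, which mark the same rat. The residuals of same-animal arrays had correlations of 0.25 to 0.27 between sublingual and mandibular, 0.32 to 0.47 between sublingual and parotid and -0.09 to 0.11 between mandibular and parotid gland. The 3 rats are separate animals, and each array is 1 sample.

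The miRNAs named are taken from 136 that met a rule. It takes, for each pair and direction, the 8 largest called differences of one sign in all animals with detection on all arrays of the brighter gland. It also takes the 5 brightest and the 5 most variable miRNAs of each gland and the tested members of lists of families and cell type markers. The members, lists and tests were chosen with earlier results of these data known. Alternatives covered the block, scaling, background, floor, filter, adjustment and left-out arrays. Normexp background correction used the median spot signal in place of the mean. Other organs were used for ranges and ranks only.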

Additional observations from a re-analysis of the deposited data

How the results depend on the processing

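Of the alternatives, 3 were chosen after seeing the data: leaving out the parotid arrays of animals 4 and 5, leaving out the 5 miRNAs with nearly constant unscaled signal, and a second normexp correction. Calls are given in the order sublingual against mandibular, sublingual against parotid, mandibular against parotid gland and F test, where the main counts were 67, 130, 92 and 133. Without the replicate block for the animal they were 50, 116, 72 and 109, and the lower calls of the first pair were 13 against 23. On the miRNAs detected on all 9 arrays they were 32, 72, 53 and 77 of 95 tested, split 9 to 23, 27 to 45 and 24 to 29. With a floor 4 times as high the first count was 44, and with a floor of 50.1 the first and the third were 38 and 57. With no filter the first was 0 by limma, with an unadjusted p under 0.05 for 14.9% of 717 miRNAs. Without the parotid arrays of animals 4 and 5, which leaves 1 parotid array, the first was 0 (80 unadjusted), the third 41 and the F test 74. Leaving out 1 array or 1 animal gave 0 to 94, 80 to 142, 9 to 97 and 50 to 151 calls.

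The scaling moved the split of higher against lower calls as well. In the authors' table it was 30 to 30 between sublingual and mandibular and 62 to 21 between mandibular and parotid gland, where the median of all miRNAs was -0.31 and 0.45. Quantile normalization gave 35 to 31, 74 to 49 and 66 to 25 in the 3 pairs. The 75th percentile over all miRNAs gave 58 to 31 between mandibular and parotid gland, and the median over the 95 miRNAs gave 60 to 30 there and 77 to 45 between sublingual and parotid gland. The 75th percentile over the 95 miRNAs gave 56 to 11 between sublingual and mandibular and 36 to 55 between mandibular and parotid gland. The fit over all perfused organs gave 58 to 38 in the last pair. The median SD within sublingual, mandibular and parotid gland was 0.267, 0.463 and 0.380 with the 75th percentile over all miRNAs, and 0.103 to 0.153, 0.0998 to 0.330 and 0.104 to 0.275 with 1 animal left out.

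Normexp background correction as planned gave 0, 69, 8 and 13 calls (3 unadjusted in the first pair). On the parotid array of animal 6, 5 spots had local backgrounds of up to 64034 against a median of 308, and the 470 miRNAs not detected on any gland array had a median there of 438 with the offset of 50, against 58.0 to 59.4 on the other arrays. With these backgrounds replaced and no offset the calls were 75, 132, 75 and 139, split 40 to 35, 49 to 83 and 26 to 49. Under the planned correction 37 of the 204 differences of single miRNAs changed sign. For sublingual minus mandibular gland these were -0.091 for miR-145, -0.18 for miR-214, -0.26 for miR-31, -0.14 for miR-431 and -0.073 for miR-495. For sublingual minus parotid gland these were -0.57 for let-7e, -0.67 for miR-103, -0.31 for miR-107, -1.45 for miR-145, -0.79 for miR-146a, -0.23 for miR-154, -1.11 for miR-183, -0.42 for miR-200c, -0.63 for miR-205, -0.32 for miR-205_v15.0, -0.92 for miR-221, -0.94 for miR-300-3p, -1.74 for miR-31, -0.36 for miR-376b-3p, -0.15 for miR-379, -1.50 for miR-431, -1.44 for miR-495 and -0.081 for miR-96. For mandibular minus parotid gland these were -0.43 for let-7e, -0.40 for miR-103, -0.052 for miR-107, -0.80 for miR-127, -0.55 for miR-136, -0.97 for miR-154, -0.70 for miR-183, -0.68 for miR-205_v15.0, -0.68 for miR-221, -1.21 for miR-300-3p, -1.06 for miR-376b-3p, -0.93 for miR-379, -0.70 for miR-434 and -0.092 for miR-96. Quantile normalization turned miR-375 to 0.24 and 0.26 against the parotid gland.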
